A study of Caenorhabditis elegans with 2 samples.

Results

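KLU-1 peaks were described at the heat shock protein and chaperone genes of Caenorhabditis elegans. The members were all protein-coding genes of the Ensembl annotation whose symbols start with hsp-, dnj- or cct-, which gave 59 of 19973 protein-coding genes on the 6 chromosomes. They comprised 6 HSP70 genes, 2 HSP90 genes, 13 small HSP genes, 9 chaperonin genes (hsp-60 and 8 cct genes) and 29 DnaJ genes. Family names here cover only genes with these symbols, so relatives under other symbols are not in the family counts. The klu-1 gene (ZK337.2) encodes a zinc finger protein, and in strain RW12326 a TY1, EGFP and 3xFLAG tag had been inserted at klu-1 by CRISPR (allele st12326). The design held 1 group with 2 biological replicates of whole L4 larvae, at 47 h in cultures synchronised by starving L1 larvae after bleaching, and chromatin was precipitated with an antibody against GFP. Whole animals were used, so all tissues were mixed in each sample, and the peak lists hold no expression values with which the stage or tissue could be checked. Untagged animals and input libraries were not analysed here.

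Chaperones bind unfolded proteins and help them to fold or to stay soluble. HSP70 proteins work in cycles of ATP hydrolysis that DnaJ proteins (HSP40, or J-domain proteins) start, HSP90 acts on nearly folded clients such as kinases and receptors, small HSPs hold unfolded proteins without ATP, and chaperonins fold clients inside a closed ring. Many of these genes are induced by heat through the transcription factor HSF-1, which binds heat shock elements, repeats of GAA and its complement TTC. Others are expressed at all times, and separate members serve the endoplasmic reticulum (ER) and the mitochondria.

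For each gene the strongest peak with a summit within 1000 bp of one of its annotated transcript starts was taken. A thresholded peak is one on the authors' list of 1043 peaks, all past an irreproducible discovery rate (IDR) of 0.01, which is a −log10 IDR of 2. Where a gene had none, its strongest peak in the authors' ranked list of 128328 peaks was taken. The signal is the strength that the authors' peak caller gave a peak, on a scale that is not stated, so it is used only to rank and describe peaks. Read depth is unknown, since the lists hold no read counts. The replicates' own thresholded lists held 566 and 378 peaks, and their ranked lists 65693 and 95500.

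Within 1000 bp, thresholded peaks lay near chaperone genes of all 5 families. Of the 59 genes, 10 (16.9%) had one within 1000 bp, against 727 of all 19973 protein-coding genes (3.64%), a share 4.66 times as high. The ratio of the shares was 3.01 within 2000 bp, where 10 members stood against 5.63% of all genes, and 3.04 when only the nearest gene took a peak. By family these were 2 of 6 HSP70 genes, 1 of 2 HSP90 genes, 1 of 13 small HSP genes, 3 of 9 chaperonin genes and 3 of 29 DnaJ genes. The chaperonin share was thus 33.3%, and that of the DnaJ genes was 10.3%. With only the nearest gene, HSP90 and chaperonin counts were 0, HSP70 and small HSP counts were 1, and the DnaJ count was 3. The small HSP count was 0 within 500 bp and without peaks near small RNA genes. In the order of their signals the 10 genes were dnj-28, hsp-90, cct-8, hsp-60, cct-7, dnj-9, dnj-12, hsp-12.3, hsp-1 and hsp-6. The shares were set side by side with no test, since the genes were not a random draw and neighbouring genes can share a peak.

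**Figure D1:**
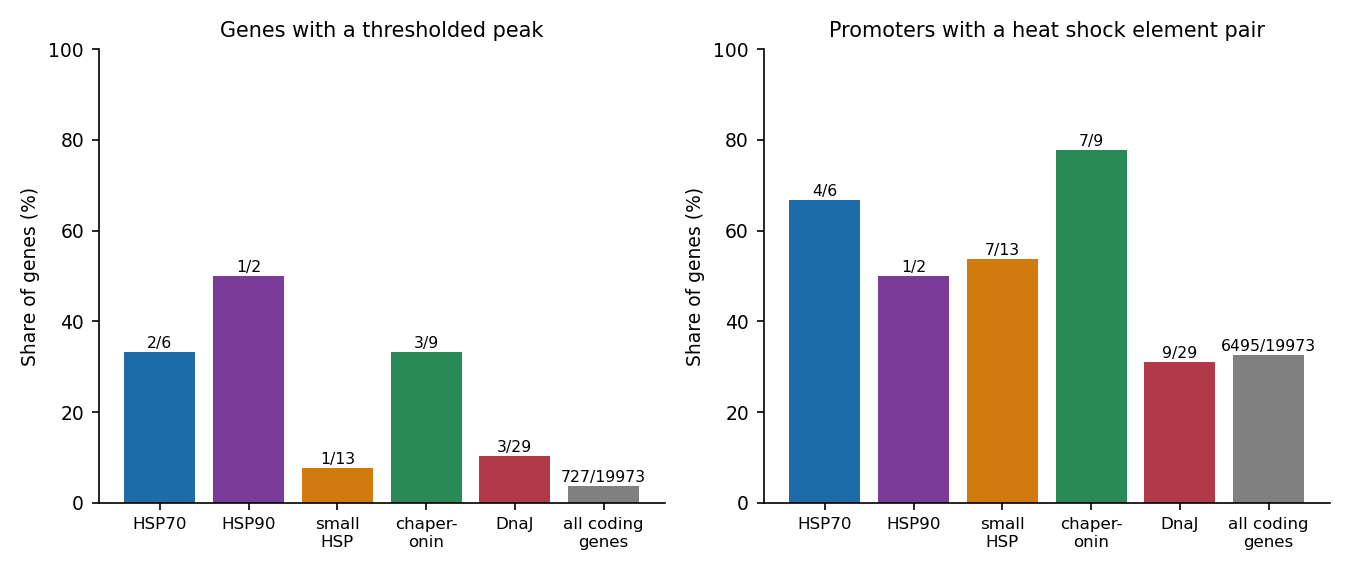
Left, the share of genes in each family with a thresholded KLU-1 peak within 1000 bp of a transcript start (%). Right, the share whose promoter held GAANNTTC or TTCNNGAA (%). Bars run from 0, the numbers above them are genes out of all genes of the family, and the last bar of each panel is all protein-coding genes. The peak share ran from 7.69% of small HSP genes to 1 of the 2 HSP90 genes, against 3.64% of all genes.

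The sequences around the thresholded summits of all HSP90, HSP70 and chaperonin genes that had one are shown because the peaks could be read there against the heat shock element. Each runs 50 bp to either side of the summit, on the strand of the chaperone gene, and was read from the RefSeq WBcel235 assembly, which is ce11. Capitals mark the letters searched for on either strand, namely GAANNTTC and TTCNNGAA (pairs of heat shock element units), the letters GAGAG, the word GTGGG and the word CACCC.
hsp-90, chrV:14685692-14685792: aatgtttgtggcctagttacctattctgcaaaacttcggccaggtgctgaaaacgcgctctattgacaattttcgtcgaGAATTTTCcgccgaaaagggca
cct-8, chrIV:1094297-1094397: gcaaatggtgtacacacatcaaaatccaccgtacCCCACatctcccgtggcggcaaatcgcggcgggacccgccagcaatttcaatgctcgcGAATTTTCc
cct-7, chrV:1871907-1872007: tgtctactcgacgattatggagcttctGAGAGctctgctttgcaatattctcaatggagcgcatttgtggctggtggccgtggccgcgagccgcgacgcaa
hsp-1, chrIV:17278559-17278659: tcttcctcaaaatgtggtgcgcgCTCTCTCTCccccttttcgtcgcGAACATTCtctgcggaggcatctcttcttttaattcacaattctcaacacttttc
hsp-60, chrIII:1619082-1619182: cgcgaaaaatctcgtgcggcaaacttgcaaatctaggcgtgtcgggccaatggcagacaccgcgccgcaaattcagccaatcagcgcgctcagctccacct
hsp-6, chrV:4827144-4827244: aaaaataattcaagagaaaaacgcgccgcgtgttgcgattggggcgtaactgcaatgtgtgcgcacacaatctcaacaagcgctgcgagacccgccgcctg
The window of hsp-1 held GAACATTC with its centre 0.5 bp from the summit, and a run of overlapping CTCTC 21 to 25 bp upstream of it. The same motif, as GAATTTTC, lay 32.5 bp downstream of the summit at hsp-90 and 45.5 bp downstream at cct-8. At cct-7 no pair was found, and GAGAG lay 21 bp upstream of the summit. No searched motif lay in the windows of hsp-60 and hsp-6, which says only that these letters are not in these windows.

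The second strongest peak of all members, after that of dnj-28, lay at hsp-90, the cytosolic HSP90 gene (WBGene00000915). It spanned chrV:14685622-14685861 with a signal of 210.7 and rank 51 of the 1043 thresholded peaks. The replicate lists gave 98.98 in replicate 1 and 110.16 in replicate 2, at ranks 66 of 566 and 35 of 378, so both replicates listed it as thresholded. Its summit lay 418 bp upstream of the nearer of 2 annotated starts, within an intron of the transcript that starts 824 bp upstream of the summit. Of all protein-coding genes, 0.290% had a strongest peak this high or higher. The other HSP90 gene of the member list, hsp-75, had no thresholded peak. Its strongest ranked peak had a signal of 35.72, a −log10 IDR of 0.71 and a summit 540 bp downstream of the start, in coding sequence.

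Among the HSP70 genes the constitutive cytosolic and the mitochondrial member had thresholded peaks, and the ER members did not. The peak of hsp-1 (WBGene00002005), the constitutive HSC70, spanned chrIV:17278489-17278728 with its summit 350 bp upstream, and had a signal of 67.69, with 33.14 in replicate 1 and 31.69 in replicate 2. For hsp-6 (WBGene00002010), the mitochondrial HSP70 that serves as the usual reporter of the mitochondrial unfolded protein response, the signal was 61.94, with 31.58 in replicate 1 and 36.06 in replicate 2. That peak spanned chrV:4827074-4827313 and its summit lay 434 bp upstream, inside the overlapping non-coding RNA genes C37H5.15 and C37H5.16. Neither peak was on the thresholded list of a single replicate, although both ranked in the upper 2.06% of the ranked list of replicate 1 and the upper 2.01% of that of replicate 2.

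The other HSP70 genes fell below the threshold. The strongest was hsp-110 (signal 53.87, −log10 IDR 1.55, 226 bp upstream), which encodes an HSP70 relative that exchanges nucleotides. The ER chaperones of the BiP type had summits in their own coding exons, with a signal of 52.88 for hsp-3 (−log10 IDR 1.15) and 33.40 for hsp-4 (0.42). The heat-inducible hsp-70 had a signal of 39.18 (0.74), also from a summit in its own coding exon, 270 bp downstream of the start. All 6 HSP70 genes of the member list lay above the median of all genes. Their own median was 53.4, against 30.5 for all protein-coding genes with a ranked peak.

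Chaperonin genes carried 3 thresholded peaks, and all of them were listed by replicate 1 on its own. The CCT subunits form the cytosolic ring that folds actin and tubulin. The peak at cct-8 (WBGene00021934, chrIV:1094227-1094466, 427 bp upstream) had a signal of 162.7 and rank 99, with 76.09 in replicate 1 and 83.52 in replicate 2. For hsp-60 (WBGene00002025), the mitochondrial chaperonin, the peak at chrIII:1619012-1619251 lay 610 bp upstream, with a signal of 119.1 and rank 207. Replicate 1 gave it 72.12 and replicate 2 gave 45.98, which was 1.57 times as high in replicate 1. The third, at cct-7 (WBGene00020391, chrV:1871837-1872076, 289 bp upstream), had a signal of 90.96, with 48.50 in replicate 1 and 45.14 in replicate 2. Replicate 2 also listed the first pair as thresholded, and not cct-7.

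The remaining CCT genes were spread over a wide range. The ranked peaks of cct-3 and cct-5 had signals of 52.92 and 44.49, and −log10 IDR values of 1.48 and 1.79. For cct-5 the replicates stood apart, with 40.36 in replicate 1 (upper 0.985% of its list) and 11.16 in replicate 2 (upper 69.1%). Those of cct-1, cct-2, cct-6 and cct-4 had 44.06, 41.65, 28.98 and 22.56. The peak of cct-6 had no matched peak in either replicate. All 8 subunits are parts of 1 complex, so a thresholded peak was found for 2 of its 8 genes.

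**Figure D2:**
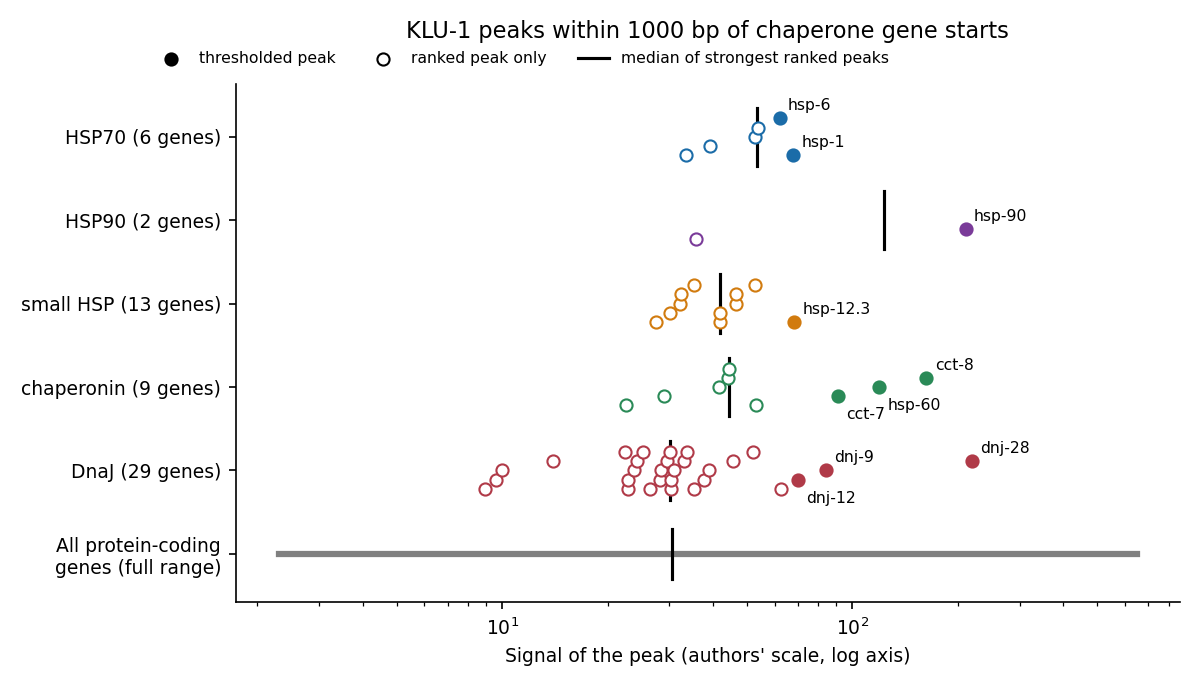
Signal of the strongest peak within 1000 bp of each chaperone gene's start (authors' scale, log axis), 1 point per gene. Points are moved up or down only to keep them apart. Filled points are thresholded peaks and open points are peaks on the ranked list only, vertical bars are medians, and the grey bar is the full range over all protein-coding genes with its median of 30.5. The DnaJ median of 30.1 is close to that of all genes, while dnj-28 at 219.7 stands far right of the other DnaJ genes.

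DnaJ genes held both the strongest and the weakest peaks of all members. The signal of dnj-28 (WBGene00001046), a J-domain protein gene, was 219.7, which gave rank 43 of 1043. Replicate 1 gave 143.13 at rank 24 of 566 and replicate 2 gave 82.05 at rank 81 of 378, so the replicates differed by 1.74 times. Its summit lay 130 bp upstream of the start. In this peak 67.1% of 31-base words occur once in the genome, against 100% for the other thresholded chaperone peaks, and whether reads from copies add to it was not tested. At dnj-9 (WBGene00001027, chrII:4851709-4851948, 227 bp upstream) the signal was 83.94, with 38.33 in replicate 1 and 46.14 in replicate 2. The peak of dnj-12 (WBGene00001030), a gene of the HSP70 co-chaperone class related to bacterial DnaJ, had a signal of 70.06 and lay 44 bp upstream of the start. Replicate 2 gave it 46.56 and listed it as thresholded, while replicate 1 had no matched peak in its ranked list.

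The next DnaJ gene fell just short. At dnj-13 the signal of 62.55 was higher than the 61.94 of hsp-6, but its −log10 IDR was 1.97, against 2.12 at hsp-6. Replicate 1 gave 22.01 and replicate 2 gave 38.57, and the summit lay in coding sequence 817 bp downstream of the start. After it came dnj-18 (51.91), where replicate 1 ranked the peak in its upper 57% and replicate 2 in its upper 0.955%, and dnj-29 (45.72). The weakest peaks of all were those of dnj-10 (8.93), dnj-17 (9.61) and dnj-16 (10.02). Starts of ndua-2 and spp-28 lay nearer to the summits at dnj-29 and dnj-16 than those of the DnaJ genes. Over the 29 DnaJ genes 12 lay above the median of all genes, and their median was 30.1, against 30.5 for all genes.

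Small HSP genes, whose members include the classic heat-inducible genes of the worm, had 1 thresholded peak. It lay at hsp-12.3 (WBGene00002012, chrIV:9444809-9445048) with a signal of 68.05 and a −log10 IDR of 2.52. The summit was 578 bp downstream of the start, in the gene's own coding exon, and within 200 bp of the snRNA gene F38E11.11. Replicate 2 gave 38.77 and did not list it as thresholded, and replicate 1 had no matched peak. Here the part of the snRNA gene in the result was not tested.

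At the heat-inducible hsp-16 genes only ranked peaks were found. The divergent pair hsp-16.2 and hsp-16.41 shared 1 peak between the genes, with a signal of 41.93 and a −log10 IDR of 1.33. Replicate 1 gave it 33.67, in the upper 1.63% of its list, and replicate 2 had no matched peak. The annotation gives the symbol hsp-16.48 to 2 genes (WBGene00002019 and WBGene00002020), which shared a peak of signal 46.52. Its summit lay 940 and 695 bp downstream of their starts, between the 3' ends of the genes. The symbol hsp-16.1 is given to another pair. Of that pair WBGene00002015 had a peak of 32.23, in which 31.0% of 31-base words were unique, and WBGene00002017 had no ranked peak within 1000 bp. The gene hsp-12.6 had none either. Next in order after hsp-12.3 stood hsp-25 (52.86, −log10 IDR 1.14), and the weakest were hsp-43 (27.49), hsp-12.1 (30.24) and the hsp-16.1 gene named above. The 11 small HSP genes with a ranked peak had a median of 41.9. Each shared peak counts for both of its genes in that median. The median is itself the value of the peak shared by hsp-16.2 and hsp-16.41.

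**Figure D3:**
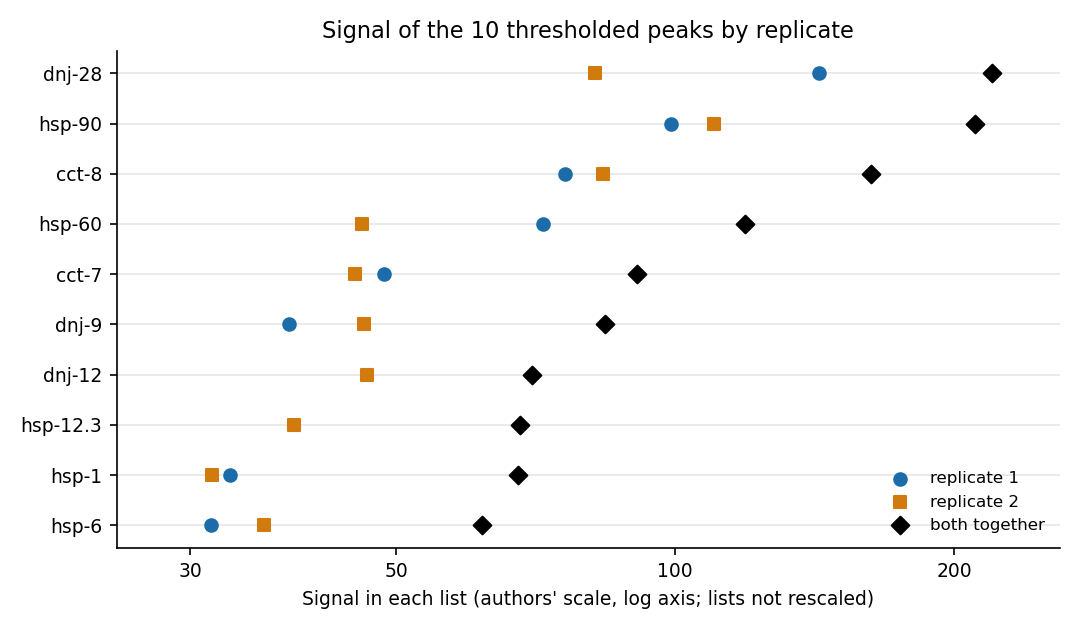
Signals of the 10 thresholded chaperone peaks (authors' scale, log axis) in the ranked list of replicate 1 (circles), of replicate 2 (squares) and of both together (diamonds). The lists were not rescaled. Replicate 1 has no point at hsp-12.3 and dnj-12, and the points of the replicates lie farthest apart at dnj-28 (143.13 and 82.05) and hsp-60 (72.12 and 45.98).

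The replicates listed part of these peaks on their own. Thresholded peaks of both replicates overlapped those of 4 of 59 genes (6.78%), namely hsp-90, cct-8, hsp-60 and dnj-28, against 260 of all 19973 genes (1.3%). Replicate 1 listed 5 of the 10 and replicate 2 listed 6. In the ranked list of replicate 1, 8 of the 10 had a matched peak, and in that of replicate 2 all 10 had one. All 10 were also on the authors' conservative thresholded list, derived from both replicates. A missing match does not show that replicate 1 had no signal there. Outside the thresholded list 47 genes had a ranked peak, of which 24 were matched in both replicates, 20 in 1 and 3 in neither. Over the 23 distinct peaks of that kind matched in both, the signals of the replicates had a Spearman rho of 0.04, and over all 31 matched member peaks 0.54. These peaks share libraries and depth, so the values are descriptions.

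Over all members the median signal of the strongest peaks was above that of all genes, while that of the 29 DnaJ genes was not. The median over the 57 genes with a ranked peak was 35.4, against 30.5 over 18565 protein-coding genes, and 36 of the 57 (63.2%) lay above that second value. The 57 genes had 55 distinct peaks, and a shared peak counts for each of its genes. A signal of 47.6, which the upper 10% of all genes reach, was reached by 16 of the 57 (28.1%). A ranked peak within 1000 bp is itself common, since 93.0% of all protein-coding genes had one. Replicate 1 alone gave medians of 21.8 for the members and 16.6 for all genes, and replicate 2 gave 21.0 and 18.4.

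Most thresholded summits lay upstream, and most lay between a start of a chaperone gene and a start on the opposite strand. In 9 of 10 the summit was upstream of the nearest start of the chaperone gene, against 78.0% of the 727 genes, and the median distance was 384 bp, against 304 bp. In 7 of 10 the summit was upstream of starts on both strands, each within 1000 bp, against 256 of 727 (35.2%). Among member peaks that did not pass it was 12 of 47 (25.5%). At hsp-90, cct-7, cct-8, hsp-60 and hsp-6 the start of the opposite gene was the nearer, so from position alone the peak cannot be assigned to either gene. The chaperone gene was the nearest for 5 of 10, against 545 of the 727 genes.

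The opposite genes have various annotated products. At hsp-60 it was Y22D7AL.10, annotated in RefSeq as the mitochondrial co-chaperonin HSP10 that caps the HSP60 ring, with 813 bp between the starts and the summit 203 bp upstream of Y22D7AL.10. Its symbol kept it out of the member list. The summit at hsp-6 lay 166 bp upstream of C37H5.5 (a NOC3 homolog of the nucleolus), and that at hsp-90 lay 257 bp upstream of C47E8.4 (a FAM50 homolog). Those at cct-8 and cct-7 lay 194 bp upstream of Y55F3AR.2 (a thioredoxin domain protein) and 150 bp upstream of T10B5.4 (an N-acetyltransferase). At dnj-12 and dnj-28 the chaperone gene was the nearer, with 448 bp to mtx-1, which encodes the mitochondrial import protein metaxin, and 444 bp to supr-1.

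**Figure D4:**
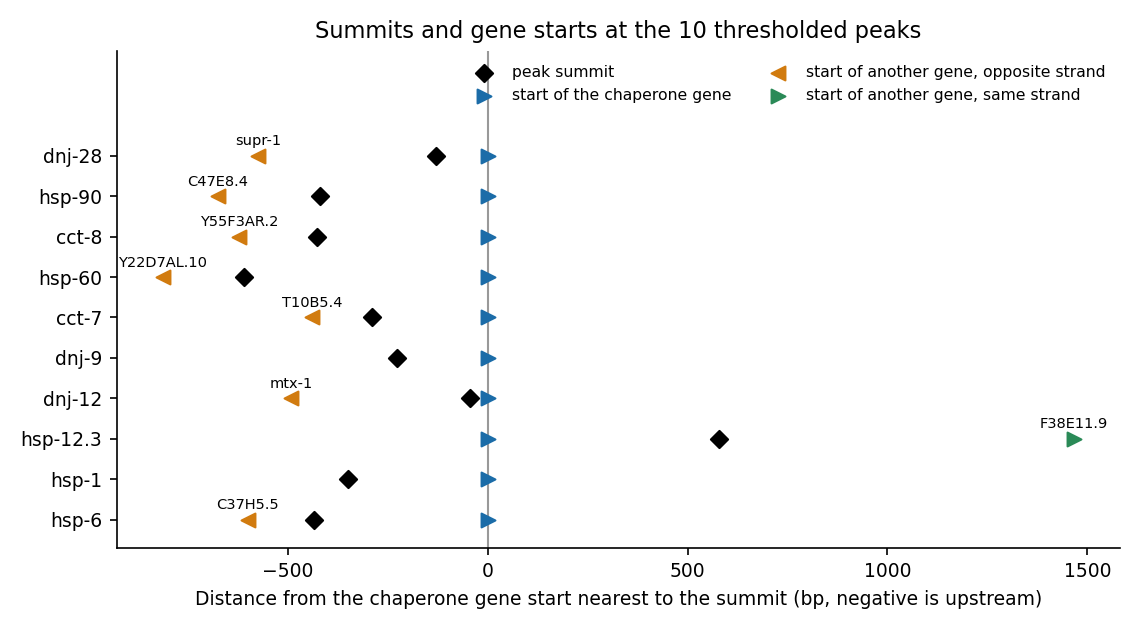
Position of the 10 thresholded summits (diamonds) relative to the nearest start of each chaperone gene (bp, negative is upstream, all genes drawn left to right). Triangles pointing left are starts of genes on the opposite strand within 1000 bp of the summit, and 1 triangle pointing right marks a gene on the same strand. In 7 rows the summit lies between 2 divergent starts, and only at hsp-12.3 does it lie downstream.

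Heat shock element letters were frequent in chaperone promoters with and without a peak, except in those of DnaJ genes. A promoter was taken as 250 bp before to 50 bp after the first start. The thresholded summits of hsp-1, hsp-6, hsp-90, hsp-12.3, cct-7, cct-8 and hsp-60 lay outside this window. For these genes the promoter letters were therefore not read at the peak. GAANNTTC or TTCNNGAA, each its own reverse complement, occurred in 28 of 59 promoters (47.5%), against 32.5% of all protein-coding genes. By family 4 of 6 HSP70, 1 of 2 HSP90, 7 of 13 small HSP, 7 of 9 chaperonin and 9 of 29 DnaJ promoters held a pair. The DnaJ share, at 31.0%, was near that of all genes. The share was 5 of 10 for genes with a thresholded peak and 23 of 49 (46.9%) for genes without. All 6 hsp-16 promoters held 3 or 4 pairs, and none of these genes had a thresholded peak. These genes are divergent neighbours whose promoter windows overlap, so the same letters can count for both neighbours.

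At the summits themselves the pair was seen in 4 of 10 thresholded member windows, those of hsp-1, hsp-90, cct-8 and dnj-12, against 7.86% of all 1043 thresholded summits. Among the 45 distinct member peaks that did not pass it was 8 (17.8%), against 12.7% of all ranked summits. At dnj-12 the centre of GAANNTTC lay 2.5 bp downstream of the summit and overlapped a TTCNNGAA. Each of the other searched words was in 2 windows or fewer. GAGAG, which 32.9% of all thresholded windows hold, was found at hsp-1 and cct-7, GTGGG (20.5%) at cct-8 and dnj-28, and CACCC (15.4%) at none of the 10. In GC content the thresholded member windows, at 49.9%, stood near all thresholded windows (49%), and the member windows that did not pass, at 40.0%, near all ranked ones (39.0%). A match of letters is a description and not a bound site.

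Other genes of protein folding, its stress responses and protein breakdown were looked at as a list of 41, of which 40 were found by symbol. The list was chosen with earlier results of these data known, so its share is only a description. A thresholded peak lay within 1000 bp of 6 of the 40 (15.0%), against 3.64% of all genes, and their median signal was 38.4. The strongest were ahsa-1, the activator of the HSP90 ATPase (signal 167.8, 94.41 in replicate 1 and 73.79 in replicate 2, 228 bp upstream), and bag-1, an HSP70 nucleotide exchange factor (signal 157.0, 83.18 in replicate 1 and 76.98 in replicate 2, 194 bp upstream). Both were on the thresholded lists of both replicates. Another gene, C01G10.7, starts nearer to the summit at ahsa-1. The others were the ER protein disulfide isomerase gene pdi-6 (85.40), the mitochondrial protease subunit gene clpp-1 (75.71), and atf-6 (72.37) and xbp-1 (64.00), which encode transcription factors of the ER unfolded protein response. None of these 4 peaks was thresholded in a single replicate. The heat shock factor gene hsf-1 itself had a ranked peak of 37.58 (−log10 IDR 0.62, 69 bp upstream). The prefoldin genes pfd-5 (57.87) and pfd-4 (56.29), whose products pass clients to CCT, were the strongest of the rest. At pfd-4 the gene B0035.22 starts nearer to the summit.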

How the data were processed

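KLU-1 ChIP-seq peaks of 2 replicates of 1 group were used, on assembly ce11. The authors deposited ranked and thresholded peak lists for each replicate and for both together, plus a conservative pair, derived from alignments and an input, per the deposited descriptions. The deposited signal is the authors' peak strength, and the deposited −log10 of the IDR came from the authors' ranked lists. The aligner and the peak caller were not given in the sources used here, nor whether the signals were corrected for a control. In each of the 4 ranked lists 8 columns without sample names were not used. Past the IDR threshold 97 ranked peaks were absent from the thresholded list, and none lay near a member.

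Genes and 29784 transcript starts came from Ensembl release 115, and no peak ran past the end of a reference chromosome. A gene took its strongest peak with a summit within 1000 bp of a start, and replicate peaks were matched by an overlap of at least 50% of the shorter peak. Promoters were cut from the genome. The procedures were tested on simulated data (Python 3.11.15, pandas 2.3.3). No test was run: counts, medians and shares stand beside those over all protein-coding genes, and depth is unknown. Named were all members with a thresholded peak, all HSP70, HSP90 and chaperonin genes, and the 3 strongest and 3 weakest of the DnaJ and small HSP genes. Names outside this rule were picked with their values in view. The members and lists were chosen with earlier results of these data known. Alternatives were other windows, starts, gene assignments, lists and overlaps.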

Additional observations from a re-analysis of the deposited data

How the results depend on the processing

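The count of 10 members with a thresholded peak was 8 within 500 bp, against 2.58% of all genes, and 10 within 2000 bp, against 5.63%. It was 10 from the first start only (all genes 3.3%) and in the conservative list (3.5%), and 9 without peaks near tRNA, snRNA or snoRNA genes (3.01%). The members' share over that of all genes was 4.66 as reported, 3.01 within 2000 bp, 3.04 with only the nearest gene, 3.8 without replicate 2, 6.57 without replicate 1 and 4.72 to 5.26 otherwise. It fell to 5 when only the nearest gene took a peak, against 2.79% of all genes, and to 6 among peaks at or above the list's median signal, against 2.15%. Without a replicate it ran from 5 to 6 (8.47% against 2.23% of all genes without replicate 2, and 10.2% against 1.55% without replicate 1). With only the nearest gene the HSP70 count was 1 and the HSP90 and chaperonin counts were 0, because opposite genes start nearer. Above the median signal of the thresholded list, HSP70 and small HSP counts were 0. The small HSP count was also 0 within 500 bp and without the peaks near small RNA genes. Leaving out a replicate gave 0 for HSP70 (0 to 0) and small HSP genes (0 to 0), 1 for HSP90 genes, 2 to 3 for chaperonin genes and 1 to 3 for DnaJ genes. No setting added a member to the 10. The count of 4 in both replicates stayed at 4 for any overlap of 1 bp, for summits within 100 bp and in the conservative list. The median signal of 35.4 was 34.1 within 500 bp, 43 within 2000 bp and 35.5 in the conservative ranked list, and 21.0 to 21.8 in the single replicates, whose signals are on their own scales. The cause of these changes was otherwise not tested.

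No paired analysis was possible because the design has 1 group. Read depth is unknown, so the replicates' missing peaks cannot be told from shallow sequencing. Families hold 2 to 29 genes, and 1 peak moves the share of a small family far. Annotated starts in C. elegans are often trans-splice sites, and the distance to the true start of transcription was not measured.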

Other observations

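Thresholded peaks lay between 1000 and 5000 bp from the starts of 6 of the 49 members without a nearer one (12.2%), against 1451 of the 19246 protein-coding genes without a nearer one (7.54%), with no test. The distances were 2081 bp at dnj-4, 2212 bp at dnj-16, 2299 bp at hsp-12.6, 2387 bp at hsp-70, 3094 bp at hsp-110 and 4472 bp at dnj-15. The peak near hsp-12.6 was the one already counted for hsp-12.3, so it was not a further peak. These genes were named after their values were seen. Ranked peaks of 2 further DnaJ genes lay in sequence with many repeated words, with 41% of 31-base words unique at dnj-10 and 70.5% at dnj-2. The ranked peak of the hsp-16.1 gene WBGene00002015 lay over the snRNA gene T27E4.11.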
